A study of Rattus norvegicus with 24 samples.

Results

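In rat INS-1 cells 57 genes were at least 2-fold above Control after 1 h both with GLP-1 and with BMS-21. These are the genes that remain once the well-known immediate early families (FOS and JUN, NR4A, EGR, IER, KLF, DUSP, Sprouty, RGS, PDE and BTG) and a further group of named genes, among them Crem, Sik1, Per1, Gem and Irs2, are set aside. A gene was taken when log2 of the mean with the agent plus 1 over the mean in Control plus 1 was at least 1 for both agents at 1 h, and when the mean of the 8 libraries was at least 20 normalised counts in each comparison. Of 26404 genes in the tables, 11909 reached that mean and 84 of them passed the fold with both agents (0.705%), 93 genes passing it with GLP-1 (0.781%) and 89 with BMS-21 (0.747%). Of these 84, 27 were left out by symbol and 57 remained, 53 of them with a gene symbol. The 1 h values chose the members, so they are given here as a description, and tests were made only on the 6 h libraries, which the choice did not use.

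INS-1 is an insulin-producing rat insulinoma line, and all libraries came from it. Cells stood for 90 min in medium with 3 mM glucose and then received medium with 11 mM glucose together with 100 nM GLP-1, 1 µM BMS-21 or DMSO at a matching concentration (Control). RNA was taken after 1 h or 6 h, which gave 6 groups of 4 libraries. BMS-21 is known here by its code name alone, and each agent was given at a single dose, so a difference between the agents is also a difference between these doses.

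GLP-1 is an incretin hormone whose receptor on beta cells couples to Gs and raises cAMP. Protein kinase A then phosphorylates CREB, which sits at the cAMP response element (CRE), and the coactivators of the CRTC family enter the nucleus. The genes switched on first encode transcription factors, receptors, signalling proteins and proteins that limit the signal, many of them with short-lived transcripts.

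Because CREB binds the palindrome TGACGTCA, the stretch from 250 bases before to 50 bases after the annotated start (RefSeq, build GRCr8) was searched on both strands for these letters, which contain the shorter core TGACG on each strand. A promoter was at hand for 42 of the 57 members. Fewer than 80% of the members had one, so a comparison of the set with other genes is void, and the matches are a description of single promoters. The full element stood in the promoters of Arl5b, Lrrtm2, Maff, Pard6a, Plk2 and Slc25a25. It stood in 1.83% of all 33469 promoters of the table and in 3.35% of the 8636 promoters of genes that reached the same mean at 1 h. The shorter core was found in 23 of the 42, in 21.2% of all promoters and in 33.0% of those of the expressed genes. The following 40 bases around the element, read 5′ to 3′ on the strand of the gene with the element in capitals, show how it lies in 5 members of different function, a kinase, a GTPase, a transcription factor, a polarity protein and a mitochondrial carrier.
Plk2: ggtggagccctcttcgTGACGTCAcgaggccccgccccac
Arl5b: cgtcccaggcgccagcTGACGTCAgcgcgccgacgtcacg
Maff: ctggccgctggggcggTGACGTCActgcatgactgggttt
Pard6a: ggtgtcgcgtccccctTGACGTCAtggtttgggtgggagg
Slc25a25: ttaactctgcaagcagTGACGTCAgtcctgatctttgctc
These stretches lie at chr2:43702454-43702493 (Plk2), chr17:82864224-82864263 (Arl5b), chr7:112792720-112792759 (Maff), chr19:50499892-50499931 (Pard6a) and chr3:36116716-36116755 (Slc25a25) in GRCr8, all before the annotated start, with Slc25a25 on the minus strand and the others on the plus strand. A match of letters is not a measured binding site.

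The libraries held 10667350 to 13148970 reads on genes, so that 3 reads, taken as the floor, stood for 0.228 to 0.281 RPM, the reads of a gene scaled to a common library total; this floor covers counting error only. All 14 beta-cell markers found were above 1 RPM and summed to 16700 to 20000 RPM per library. The 22 markers found of other islet, exocrine, duct, stromal, endothelial and immune cells summed to 61.2 to 106 RPM, Irx2, Amy2a3 and Cela1 were at 0 in all 24 libraries, and 5 of the 22 exceeded 1 RPM (Gcg, Ghrl, Krt7, Sox9 and Kdr). In these bulk libraries, more cells of a kind and more RNA per cell cannot be told apart. Libraries numbered 1 and 2 deviated from their group means together and against those numbered 3 and 4: in the GLP-1 comparison at 6 h the deviations of libraries from the same pair of numbers correlated by 0.0774 to 0.204 across genes, and those from the other pair by -0.177 to -0.0774. Results are therefore also given for each pair alone. Reads carry no strand with this kit (TruSeq RNA v2), so those of an overlapping or antisense gene count toward a member, and reads shared with a near-identical copy are uncertain. Separate cultures are not stated for the replicates, so a p-value here reflects the spread among 4 libraries, which may be technical.

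At 1 h the log2 ratios of the 57 genes ran from 1.02 to 3.77 with GLP-1 (median 1.65, a 3.15-fold increase) and from 1.01 to 4.10 with BMS-21 (median 1.52, 2.86-fold). Over all 11909 genes the medians were -0.0014 and 0.0011. An increase of at least 4-fold was reached by 14 members with GLP-1 and by 13 with BMS-21, the additional one being Plk2. In all 57 genes the 4 libraries of each agent lay above the 4 Control libraries; among all genes this was so for 6.23% with GLP-1 and for 5.76% with BMS-21, and nothing is read from this, as the same libraries chose the genes. With replicates 1 and 2 alone 56 of the 57 still passed the rule (all but ENSRNOG00000031167), and with replicates 3 and 4 alone 52 did (all but Ddit4, Enc1, Fam46b, Pragmin and Slc25a25). The threshold cuts through a continuous range. By the smaller of the 2 ratios, Pragmin (1.01), Enc1 (1.02) and ENSRNOG00000031167 (1.02) were just inside it, and Rnf39 (0.996), C2cd4b (0.993) and Zc3h12a (0.985) just outside.

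**Figure D1:**
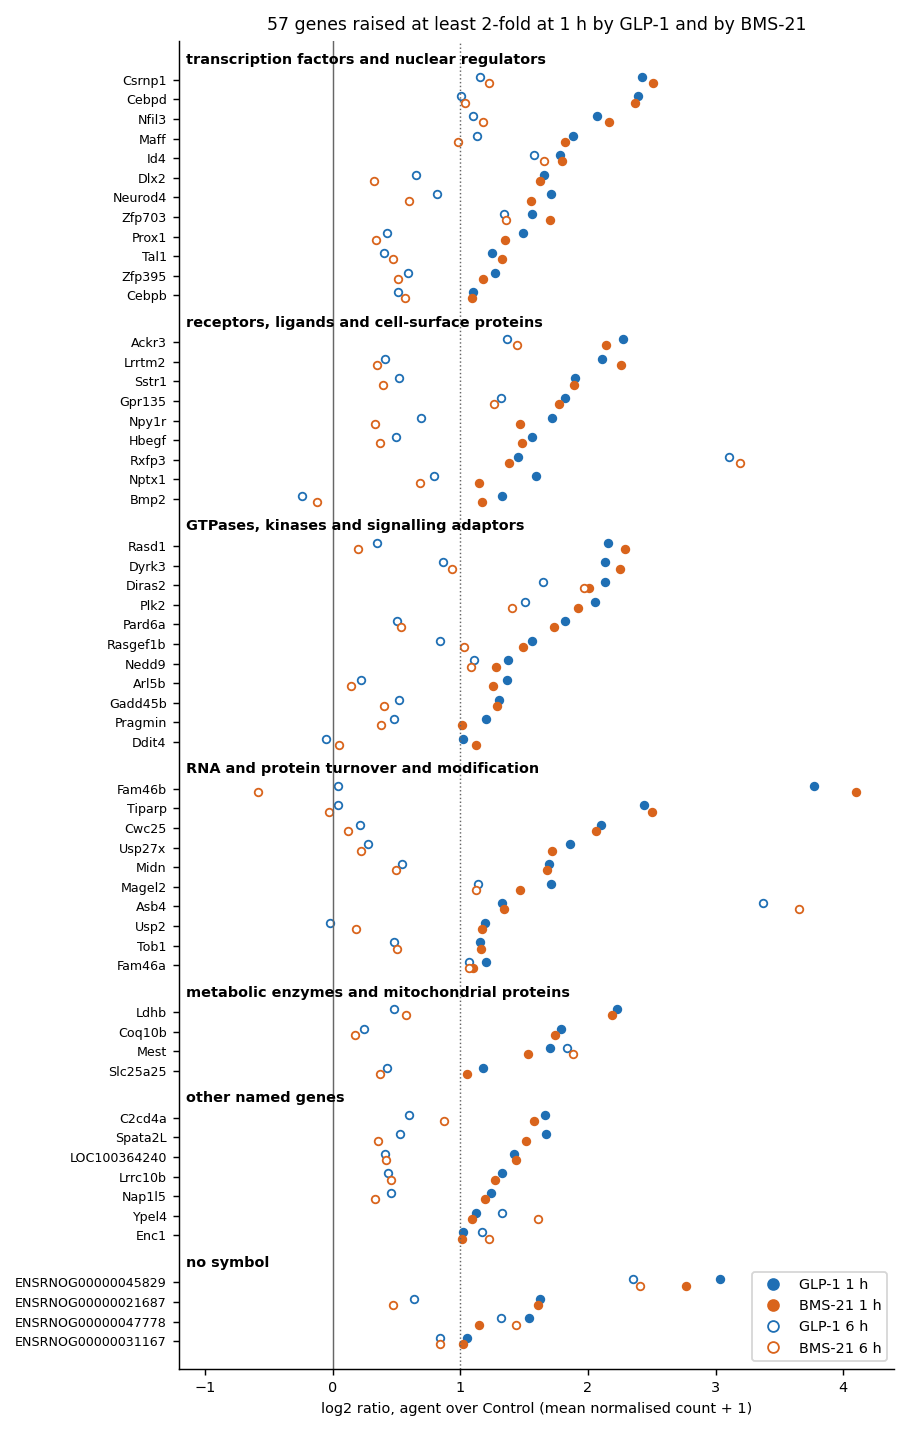
log2 ratio of agent over Control (x axis) for each of the 57 genes (y axis), grouped by role, with GLP-1 in blue and BMS-21 in orange, filled at 1 h and open at 6 h; the solid line marks no change and the dotted line the 2-fold threshold of the choice. At 1 h every filled point lies at or beyond the dotted line by construction, while at 6 h most open points lie nearer to no change and those of Asb4 and Rxfp3 lie far to the right; the 6 h points of Fam46b rest on 2 to 6 reads per library.

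At 6 h most of the genes were still higher than Control, at smaller ratios. Of the 57, 55 had a mean of at least 10 normalised counts in the 6 h comparisons, and Fam46b and Lrrtm2 did not. Against Control, Gpr135 and Magel2 reached this mean only through the agent libraries, and they are among the members called. With GLP-1, 50 of the 55 rose and 0 fell (limma, adjusted p under 0.05), where 16.2% of the 12641 genes tested rose and 15.6% fell. With BMS-21, 44 of the 55 rose and 0 fell, where 16.8% of the 12640 genes tested rose and as many fell. The median fitted log2 change of the members was 0.64 with GLP-1 and 0.57 with BMS-21, beside -0.0007 and -0.0015 over all genes. At least 2-fold increases were called in 20 members with each agent, against 1.09% and 1.19% of all genes. In normalised counts the 4 libraries of the agent lay above all 4 Control libraries in 46 of the 55 with GLP-1 (15.6% of all genes) and in 43 with BMS-21 (16.2%). RPM are scaled otherwise, and by them some of these overlap, as do Hbegf and Pragmin with BMS-21. With replicates 1 and 2 alone 47 members were called higher with GLP-1 and 43 with BMS-21, and with replicates 3 and 4 alone 42 and 41. The log2 change was above 0 in both pairs in 52 of 55 members with GLP-1 (not in Bmp2, Ddit4 and Usp2) and in 50 with BMS-21 (not in Arl5b, Bmp2, Cwc25, Ddit4 and Tiparp). Both comparisons use the same Control libraries, so their counts are not independent: 43 members were called with both agents and 4 (Bmp2, Ddit4, Tiparp and Usp2) with neither. A further 7 were called with GLP-1 alone and Pard6a with BMS-21 alone, and none of these was called different between the agents. The counts for each replicate pair and for both agents stand without a share of all genes, so they describe the members alone. Of the 27 genes set aside by symbol, 25 were called higher with GLP-1 and 24 with BMS-21. Replicate numbers were taken as pairing the GLP-1 and Control libraries, and with them as a block 51 members rose with GLP-1 (21.5% of all genes), the additional one being Pard6a (limma adjusted p = 0.0105).

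On the scale of the ratio of means, 52 of the 57 genes had a smaller log2 ratio at 6 h than at 1 h with GLP-1 and 51 with BMS-21. In 36 and 34 of them respectively the 6 h ratio was under 50% of the 1 h one. Asb4, Enc1, Mest, Rxfp3 and Ypel4 had a larger ratio at 6 h with both agents, and 1 further gene without a symbol with BMS-21. The difference between the times was not tested, since the 1 h values had to be high for a gene to enter the set.

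**Figure D2:**
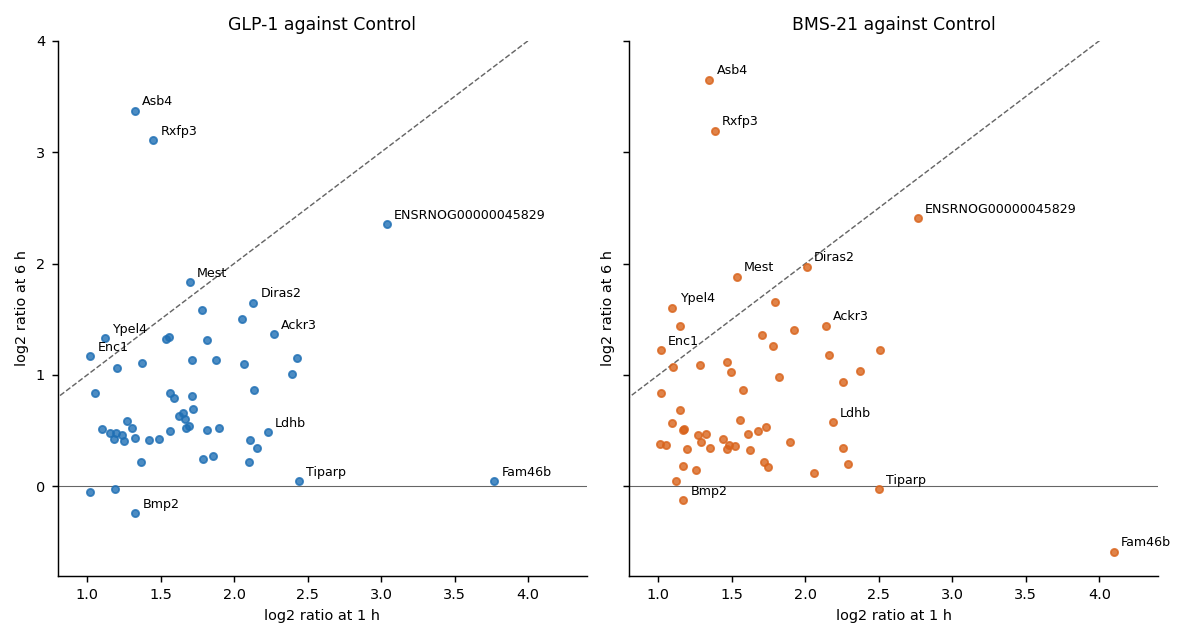
log2 ratio at 6 h (y axis) against that at 1 h (x axis) for the 57 genes, GLP-1 left and BMS-21 right; each point is a gene, the dashed line marks equal ratios and the horizontal line no change at 6 h. Asb4 and Rxfp3 lie above the dashed line at 6 h ratios over 3, Tiparp lies near 0 at 6 h after ratios of 2.44 and 2.50 at 1 h, and most genes lie below the line.

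Transcription factors and nuclear regulators made up 12 of the members. All 12 rose at 6 h with GLP-1 and 10 of 12 with BMS-21, at medians of 0.93 and 0.79 on the log2 scale. Among them are the bZIP factors Cebpd, Cebpb, Nfil3 and Maff. Cebpd and Cebpb belong to the C/EBP family, Nfil3 is a repressor that acts opposite the PAR bZIP factors, and Maff is a small MAF protein without an activation domain of its own. Values of single libraries are listed for replicates 1 to 4 in turn. Cebpd held 7.02, 6.38, 5.76 and 4.89 RPM in the Control libraries at 1 h, 32.3, 32.4, 31.0 and 29.2 with GLP-1 and 33.1, 32.1, 30.0 and 27.7 with BMS-21. Cebpd at 6 h held 8.09, 9.15, 7.20 and 6.54 RPM in Control, 15.6, 16.0, 13.3 and 15.4 with GLP-1 and 16.2, 13.6, 16.2 and 15.2 with BMS-21. Cebpd had 1 h log2 ratios of 2.39 with GLP-1 and 2.37 with BMS-21, and at 6 h it rose by 1.02 (SE 0.11, limma adjusted p = 1.73e-07) and 1.04 (SE 0.11, adjusted p = 8.65e-08) in that order. Agent and Control libraries of Cebpd did not overlap at either time, and the agent libraries at 6 h were all below those at 1 h. Nfil3 at 1 h was counted at 52.4, 50.4, 68.0 and 56.4 RPM in Control, at 226, 233, 249 and 224 with GLP-1 and at 248, 246, 261 and 244 with BMS-21. Nfil3 after 6 h stood at 36.0, 33.2, 33.8 and 29.4 RPM in Control, at 70.8, 70.8, 67.9 and 64.3 with GLP-1 and at 72.7, 71.5, 72.2 and 71.8 with BMS-21. Nfil3 had 1 h log2 ratios of 2.07 with GLP-1 and 2.16 with BMS-21, and at 6 h it rose by 1.10 (SE 0.06, limma adjusted p = 7.86e-12) and 1.18 (SE 0.06, adjusted p = 6.08e-13) in that order. The Control libraries of Nfil3 were themselves lower at 6 h than at 1 h, and its BMS-21 libraries at 6 h were all above its GLP-1 libraries. Maff held 6.77, 6.98, 8.88 and 8.30 RPM in the Control libraries at 1 h, 28.6, 25.9, 29.2 and 28.5 with GLP-1 and 29.1, 26.7, 25.5 and 26.4 with BMS-21. Maff at 6 h held 2.91, 3.50, 4.39 and 3.85 RPM in Control, 7.89, 8.64, 7.93 and 6.90 with GLP-1 and 7.11, 7.00, 6.79 and 7.18 with BMS-21. Maff had 1 h log2 ratios of 1.88 with GLP-1 and 1.82 with BMS-21, and at 6 h it rose by 1.14 (SE 0.14, limma adjusted p = 1.13e-06) and 0.99 (SE 0.13, adjusted p = 4.3e-06) in that order. The promoter of Maff holds one of the full CREs printed earlier. Cebpb at 1 h was counted at 39.7, 39.4, 45.9 and 43.1 RPM in Control, at 79.4, 90.9, 89.1 and 93.6 with GLP-1 and at 77.7, 90.5, 82.5 and 101 with BMS-21. Cebpb after 6 h stood at 16.8, 19.6, 15.9 and 19.4 RPM in Control, at 23.2, 25.5, 21.6 and 28.4 with GLP-1 and at 19.9, 24.3, 24.6 and 33.3 with BMS-21. Cebpb had 1 h log2 ratios of 1.10 with GLP-1 and 1.09 with BMS-21, and at 6 h it rose by 0.51 (SE 0.09, limma adjusted p = 0.000114) and 0.55 (SE 0.13, adjusted p = 0.00612) in that order. Cebpb entered the set near its lower edge.

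In the list of small MAF, C/EBP and related bZIP factors, 7 of the 13 genes tested rose and 2 fell with either agent (medians 0.19 and 0.22), and 4 of these 7 were the members just described. Counts of this and the other lists are to be read against all genes, of which 16.2% rose and 15.6% fell with GLP-1 and 16.8% did each with BMS-21. Outside the set, Atf4 rose by 0.35 with GLP-1 (limma adjusted p = 6.66e-07) and by 0.45 with BMS-21 (adjusted p = 3.91e-09). The CREB and CRTC target list holds Maff and Nfil3. It had 21 of 25 genes higher with GLP-1 and 23 of 25 with BMS-21 and 0 lower (medians 0.96 and 0.92). This list also holds genes set aside by symbol, among them Crem, Fos, Nr4a1, Sik1 and Rgs2, with 1 h log2 ratios of 2.09, 3.76, 4.32, 3.63 and 3.61 with GLP-1. Its counts are therefore not independent of induction at 1 h. Stc1 and Pde10a, which are not members, rose at 6 h by 2.14 and 1.28 with GLP-1.

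Id4 and Csrnp1 also act in the nucleus. Id4 is a helix-loop-helix protein that lacks a basic region and sequesters bHLH factors, and Csrnp1 is a cysteine- and serine-rich nuclear protein. Id4 held 107, 110.0, 85.6 and 94.2 RPM in the Control libraries at 1 h, 360.4, 354, 292 and 328 with GLP-1 and 373, 358, 286 and 333 with BMS-21. Id4 at 6 h held 94.8, 97.9, 86.3 and 99.9 RPM in Control, 304, 297, 228 and 262 with GLP-1 and 339.7, 313, 237 and 260.1 with BMS-21. Id4 had 1 h log2 ratios of 1.78 with GLP-1 and 1.80 with BMS-21, and at 6 h it rose by 1.57 (SE 0.09, limma adjusted p = 2.63e-06) and 1.65 (SE 0.12, adjusted p = 2.49e-05) in that order. Agent and Control libraries of Id4 did not overlap at either time, and its libraries numbered 3 and 4 were the lower ones with each agent at both times. Csrnp1 at 1 h was counted at 14.0, 11.8, 11.2 and 11.4 RPM in Control, at 65.9, 63.4, 63.9 and 62.5 with GLP-1 and at 72.8, 67.0, 64.6 and 66.8 with BMS-21. Csrnp1 after 6 h stood at 8.64, 7.61, 8.86 and 8.63 RPM in Control, at 18.6, 19.2, 18.2 and 16.7 with GLP-1 and at 17.4, 20.0, 19.2 and 19.6 with BMS-21. Csrnp1 had 1 h log2 ratios of 2.43 with GLP-1 and 2.51 with BMS-21, and at 6 h it rose by 1.15 (SE 0.09, limma adjusted p = 1.42e-09) and 1.23 (SE 0.09, adjusted p = 2.47e-10) in that order. Csrnp2 of the same family was not called, at log2 changes of -0.11 and -0.14. In the list of HES, HEY, ID and SNAI repressors 2 of 8 genes rose and 3 fell with GLP-1. With BMS-21, 4 rose and 2 fell (all genes, 16.2% and 15.6% with GLP-1 and 16.8% each with BMS-21). Snai1 was among the 3 that fell with GLP-1 (-0.93, limma adjusted p = 0.0131), at means of 0.576 RPM beside 1.19 in Control at 6 h. It reached the minimum mean for testing through the Control libraries, so this call rests on few reads. With BMS-21 Snai1 was not called (-0.70, limma adjusted p = 0.0679). Hes1, a target of Notch, fell by 0.98 and 0.83 on the log2 scale with the agents in that order (limma adjusted p = 7.55e-09 and 8.86e-06), while Id2 rose by 0.40 and 0.60 (adjusted p = 0.000381 and 3.36e-05).

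The other 6 nuclear members are developmental factors and zinc-finger proteins. Zfp703, a zinc-finger corepressor, had 1 h log2 ratios of 1.56 with GLP-1 and 1.70 with BMS-21 and rose at 6 h by 1.34 and 1.36, more than the other 5 at that time. Dlx2, a homeobox factor, had 1 h ratios of 1.65 with GLP-1 and 1.62 with BMS-21 and 6 h changes of 0.68 and 0.29, called with GLP-1 alone. Neurod4, a proneural bHLH factor, showed 1.71 with GLP-1 and 1.55 with BMS-21 and then 0.84 and 0.58, again with a call for GLP-1 alone. Prox1, a homeobox factor of endocrine and lymphatic development, showed 1.49 with GLP-1 and 1.35 with BMS-21 at 1 h and rose by 0.43 and 0.34 at 6 h. Tal1, a bHLH factor best known from blood formation, showed 1.25 with GLP-1 and 1.33 with BMS-21 and rose by 0.41 and 0.48. Zfp395, a zinc-finger protein, showed 1.27 with GLP-1 and 1.18 with BMS-21 and rose by 0.59 and 0.52. The call of Dlx2 with GLP-1 ended without any of 6 of the 8 libraries (Control replicates 1, 3 and 4 and GLP-1 replicates 1, 2 and 4; log2 changes of 0.55 to 0.73, limma adjusted p 0.0618 to 0.15). That of Tal1 with GLP-1 ended without GLP-1 replicate 3 (0.33, limma adjusted p = 0.0544) and that of Prox1 with BMS-21 without BMS-21 replicate 4 (0.27, adjusted p = 0.0595), while Neurod4 gained a call with BMS-21 without Control replicate 4 or BMS-21 replicate 4 (0.74 in both cases, adjusted p 0.0303 to 0.0346).

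Receptors, ligands and other proteins of the cell surface made up 9 members. Of the 8 tested at 6 h, 7 rose with GLP-1 and 6 with BMS-21 (medians 0.74 and 0.53). Sstr1, Npy1r and Rxfp3 are receptors for somatostatin, neuropeptide Y and relaxin-3 that couple to Gi and so lower cAMP, Ackr3 is an atypical receptor that takes up the chemokine CXCL12, and Gpr135 is an orphan receptor. Ackr3 held 10.6, 10.9, 9.95 and 10.7 RPM in the Control libraries at 1 h, 51.7, 55.8, 40.6 and 51.7 with GLP-1 and 51.0, 45.8, 38.3 and 47.3 with BMS-21. Ackr3 at 6 h held 7.78, 8.72, 6.87 and 7.29 RPM in Control, 18.2, 19.4, 19.8 and 19.3 with GLP-1 and 20.9, 18.5, 22.9 and 18.2 with BMS-21. Ackr3 had 1 h log2 ratios of 2.27 with GLP-1 and 2.14 with BMS-21, and at 6 h it rose by 1.37 (SE 0.09, limma adjusted p = 1.71e-10) and 1.44 (SE 0.10, adjusted p = 1.89e-10) in that order. Agent and Control libraries of Ackr3 did not overlap at either time. Rxfp3 at 1 h was counted at 2.48, 2.50, 2.30 and 2.71 RPM in Control, at 7.34, 6.49, 6.13 and 7.28 with GLP-1 and at 7.65, 5.53, 5.13 and 7.71 with BMS-21. Rxfp3 after 6 h stood at 3.06, 3.33, 2.15 and 3.35 RPM in Control, at 28.1, 27.0, 21.4 and 24.8 with GLP-1 and at 27.4, 29.5, 25.5 and 24.9 with BMS-21. Rxfp3 had 1 h log2 ratios of 1.45 with GLP-1 and 1.38 with BMS-21, and at 6 h it rose by 3.12 (SE 0.13, limma adjusted p = 2.76e-13) and 3.21 (SE 0.12, adjusted p = 1.47e-14) in that order. The ratio of Rxfp3 was larger at 6 h than at 1 h, with the lowest 6 h library of either agent at 21.4 RPM and the highest Control library at 3.35 RPM. Sstr1 had 1 h log2 ratios of 1.90 with GLP-1 and 1.89 with BMS-21 and a smaller rise at 6 h, of 0.51 and 0.39. Npy1r showed 1.72 with GLP-1 and 1.47 with BMS-21 at 1 h and 6 h changes of 0.70 and 0.31, called with GLP-1 alone. Gpr135 showed 1.82 with GLP-1 and 1.78 with BMS-21 and rose at 6 h by 1.36 and 1.29, at levels of 0.393 to 1.66 RPM at that time. The Control libraries of Gpr135 at 6 h held 5, 10, 5 and 7 reads, so it reached the mean of 10 through the agent libraries.

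Hbegf, a ligand of the EGF receptor, was called at 6 h with both agents, and Bmp2, a secreted ligand of the BMP receptors, with neither. Hbegf held 73.3, 75.6, 61.3 and 67.3 RPM in the Control libraries at 1 h, 215, 204, 185 and 198 with GLP-1 and 199.7, 206, 167 and 187 with BMS-21. Hbegf at 6 h held 58.9, 57.6, 56.0 and 62.6 RPM in Control, 74.0, 85.5, 80.8 and 79.8 with GLP-1 and 79.8, 77.3, 62.3 and 73.0 with BMS-21. Hbegf had 1 h log2 ratios of 1.56 with GLP-1 and 1.48 with BMS-21, and at 6 h it rose by 0.50 (SE 0.05, limma adjusted p = 1.07e-07) and 0.37 (SE 0.06, adjusted p = 9.26e-05) in that order. Hbegf was the one gene called among the 3 EGF-family ligands tested; Tgfa and Nrg1 had changes of 0.10 and 0.19 with GLP-1 that were not called. Bmp2 at 1 h was counted at 9.74, 8.79, 12.1 and 10.4 RPM in Control, at 25.7, 22.8, 26.4 and 26.1 with GLP-1 and at 21.3, 19.7, 24.1 and 25.5 with BMS-21. Bmp2 after 6 h stood at 5.89, 5.04, 6.04 and 6.03 RPM in Control, at 5.59, 3.24, 5.96 and 3.93 with GLP-1 and at 5.31, 3.42, 5.82 and 5.68 with BMS-21. Bmp2 had fitted log2 changes of -0.28 with GLP-1 (SE 0.16, limma adjusted p = 0.215) and -0.15 with BMS-21 (SE 0.15, adjusted p = 0.483), neither of them called, and the agent and Control libraries overlapped. In the list of cytokines, chemokines and matricellular ligands, which holds Bmp2, 3 of 5 genes rose with each agent, namely Vegfa, Gdf15 and Wnt4. Nptx1, a neuronal pentraxin, showed 1.59 with GLP-1 and 1.14 with BMS-21 at 1 h and rose by 0.78 and 0.67. Lrrtm2 held 1.07, 0.862, 0.493 and 0.524 RPM in the Control libraries at 1 h, 4.45, 2.99, 2.59 and 3.52 with GLP-1 and 3.74, 2.91, 3.48 and 4.96 with BMS-21. Lrrtm2, a leucine-rich repeat protein of synapses, had under 10 normalised counts on average at 6 h and was not tested; its 6 h libraries ran from 0.0828 to 0.532 RPM over the 3 groups, near the floor of 3 reads.

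**Figure D3:**
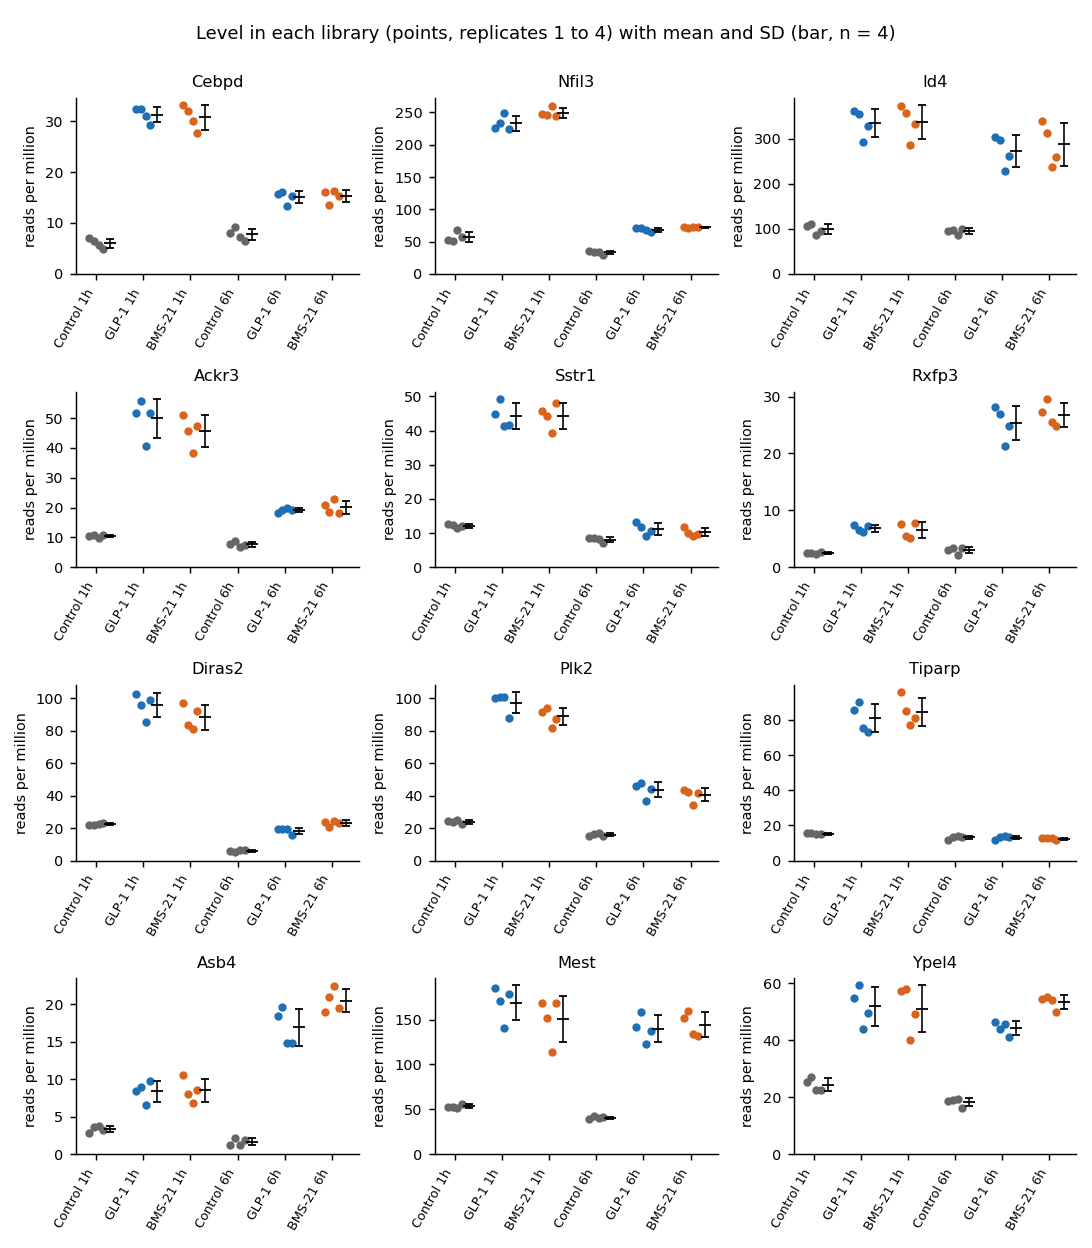
RPM (y axis, from 0) of 12 of the genes in each of the 24 libraries, by group on the x axis (Control grey, GLP-1 blue, BMS-21 orange); points are single libraries and the bar beside them is the mean with the SD of 4. Agent libraries of Tiparp fall back among the Control libraries at 6 h, those of Id4 and Mest stay high, and those of Rxfp3 and Asb4 are higher at 6 h than at 1 h.

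Among 11 GTPases, kinases and signalling adaptors, 9 rose with GLP-1 at 6 h and 8 with BMS-21 (medians 0.54 and 0.57). Rasd1 is a Ras-like GTPase first found as dexamethasone-inducible, Diras2 is a GTPase of the Ras family, and Plk2 and Dyrk3 are inducible protein kinases. Rasd1 at 1 h was counted at 46.7, 43.5, 39.1 and 37.8 RPM in Control, at 178, 189, 195 and 166 with GLP-1 and at 203, 199, 216 and 183 with BMS-21. Rasd1 after 6 h stood at 18.7, 18.7, 23.0 and 19.8 RPM in Control, at 24.2, 23.8, 26.8 and 23.5 with GLP-1 and at 19.4, 21.2, 24.4 and 23.6 with BMS-21. Rasd1 rose at 6 h by 0.35 with GLP-1 (SE 0.08, limma adjusted p = 0.00132), and its change of 0.20 with BMS-21 (SE 0.08, adjusted p = 0.0746) was not called. It was called with BMS-21 without Control replicate 3 or BMS-21 replicate 1 (0.26 to 0.27, adjusted p 0.0204 to 0.0272). Diras2 held 21.8, 21.8, 22.5 and 23.2 RPM in the Control libraries at 1 h, 103, 95.9, 85.5 and 99.0 with GLP-1 and 96.8, 83.2, 80.7 and 91.7 with BMS-21. Diras2 at 6 h held 5.97, 5.04, 6.79 and 6.45 RPM in Control, 19.3, 19.6, 19.4 and 15.7 with GLP-1 and 24.0, 20.6, 24.4 and 23.4 with BMS-21. Diras2 had 1 h log2 ratios of 2.13 with GLP-1 and 2.01 with BMS-21, and at 6 h it rose by 1.65 (SE 0.11, limma adjusted p = 1.47e-10) and 1.98 (SE 0.10, adjusted p = 1.28e-12) in that order. The Control libraries of Diras2 were lower at 6 h than at 1 h, so that the 6 h agent libraries, although well above their own Control, were near the level of the 1 h Control libraries.

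Plk2 held 24.7, 23.7, 24.8 and 22.5 RPM in the Control libraries at 1 h, 100.0, 101, 101 and 87.7 with GLP-1 and 91.8, 94.3, 81.8 and 87.4 with BMS-21. Plk2 at 6 h held 15.0, 16.5, 16.7 and 15.4 RPM in Control, 46.1, 47.7, 36.9 and 44.2 with GLP-1 and 43.7, 42.3, 34.6 and 41.7 with BMS-21. Plk2 had 1 h log2 ratios of 2.05 with GLP-1 and 1.92 with BMS-21, and at 6 h it rose by 1.50 (SE 0.08, limma adjusted p = 2.82e-12) and 1.40 (SE 0.07, adjusted p = 2.14e-12) in that order. Agent and Control libraries of Plk2 did not overlap at either time. Among the 5 members whose CRE is printed, the 6 h changes with GLP-1 ran from 0.22 (Arl5b) to 1.50 (Plk2), with Slc25a25 (0.42), Pard6a (0.54) and Maff (1.14) between them. Dyrk3 at 1 h was counted at 13.4, 12.8, 13.6 and 13.3 RPM in Control, at 57.0, 57.5, 63.3 and 50.7 with GLP-1 and at 63.9, 61.5, 64.3 and 59.5 with BMS-21. Dyrk3 after 6 h stood at 7.78, 8.38, 10.3 and 9.89 RPM in Control, at 16.6, 16.2, 16.2 and 15.1 with GLP-1 and at 16.2, 17.4, 15.1 and 18.5 with BMS-21. Dyrk3 had 1 h log2 ratios of 2.13 with GLP-1 and 2.25 with BMS-21, and at 6 h it rose by 0.87 (SE 0.10, limma adjusted p = 4.43e-07) and 0.94 (SE 0.10, adjusted p = 1.41e-07) in that order. In the list of inducible SGK, PLK and PIM kinases 3 of 11 genes rose and 2 fell with each agent (medians -0.04 and 0.00), where 16.2% of all genes rose and 15.6% fell with GLP-1 and 16.8% did each with BMS-21, so that the list lies near the share of all genes. Beside Plk2 these were Plk3, at 0.68 and 0.60, and Sgk2, at 1.99 and 1.77, while Pim1 fell by 0.42 and 0.32. Pragmin, a pseudokinase, lay at the edge of the set. Pragmin held 18.2, 15.8, 22.3 and 18.6 RPM in the Control libraries at 1 h, 39.4, 40.7, 40.4 and 48.0 with GLP-1 and 39.8, 31.8, 36.7 and 40.0 with BMS-21. Pragmin at 6 h held 9.27, 9.15, 10.5 and 9.22 RPM in Control, 11.3, 13.8, 12.4 and 13.9 with GLP-1 and 12.5, 11.9, 10.1 and 13.3 with BMS-21. Pragmin had 1 h log2 ratios of 1.20 with GLP-1 and 1.01 with BMS-21, and at 6 h it rose by 0.48 (SE 0.09, limma adjusted p = 0.000476) and 0.37 (SE 0.10, adjusted p = 0.00485) in that order.

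Among the remaining signalling members, Nedd9, a scaffold of the Cas family, had 1 h log2 ratios of 1.37 with GLP-1 and 1.28 with BMS-21 and rose at 6 h by 1.11 and 1.09. Rasgef1b, a guanine nucleotide exchange factor for Rap GTPases, showed 1.56 with GLP-1 and 1.49 with BMS-21 and then 0.93 and 1.13. Gadd45b, a stress protein that activates MAP kinase cascades, showed 1.30 with GLP-1 and 1.29 with BMS-21 and rose by 0.53 and 0.41. Arl5b, an ARF-like GTPase of the Golgi, showed 1.37 with GLP-1 and 1.25 with BMS-21 and then 0.22 and 0.15, called with GLP-1 alone. Pard6a, a scaffold of the polarity complex, showed 1.82 with GLP-1 and 1.73 with BMS-21 and then 0.54 and 0.57, called with BMS-21 alone (limma adjusted p = 0.0518 with GLP-1 and 0.0361 with BMS-21). Ddit4, an inhibitor of mTORC1, showed 1.02 with GLP-1 and 1.12 with BMS-21 at 1 h and uncalled changes of -0.07 and 0.02 at 6 h. With GLP-1, Rasgef1b lost its call without any of 5 libraries (Control replicates 1, 2 and 4 and GLP-1 replicates 2 and 3; adjusted p 0.0533 to 0.0861). Arl5b lost its own without Control replicate 1 or 2 or GLP-1 replicate 3 (adjusted p 0.0764 to 0.1), and Pard6a was called without Control replicate 1 or GLP-1 replicate 3 (adjusted p 0.0125 to 0.0223). With BMS-21, Pard6a lost its call without Control replicate 3 or 4 or BMS-21 replicate 1, 2 or 3 (log2 changes of 0.38 to 0.55, adjusted p 0.0693 to 0.148).

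Proteins that modify or turn over RNA and protein formed a group of 10, of which 9 were tested at 6 h. Of these, 7 rose with GLP-1 and 5 with BMS-21. Fam46b and Fam46a, also called Tent5b and Tent5a, are non-canonical poly(A) polymerases. Fam46b had the largest 1 h ratios of the set, on few reads: 1, 0, 7 and 1 reads were counted in the Control libraries, 47, 55, 35 and 34 with GLP-1, and 68, 47, 53 and 43 with BMS-21. Fam46b held 0.0826, 0, 0.576 and 0.0874 RPM in the Control libraries at 1 h, 3.67, 4.57, 3.02 and 2.85 with GLP-1 and 5.53, 4.41, 4.19 and 3.81 with BMS-21. Control replicate 3 stood apart from the other Control libraries. At 6 h each library held 2 to 6 reads of Fam46b, and no comparison was made. Its mean over the 8 libraries at 1 h was 22.4 with GLP-1, close to the minimum of 20, and without GLP-1 replicate 1 or 2 it fell out of the set. Fam46a was counted at 77.0 to 164 RPM per library at 6 h and had 1 h ratios of 1.20 with GLP-1 and 1.10 with BMS-21 and 6 h increases of 1.07 and 1.07.

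Tiparp, a mono-ADP-ribosyltransferase, and Asb4, a substrate adaptor of cullin ubiquitin ligases, differed at 6 h, where Asb4 was called and Tiparp was not. Tiparp at 1 h was counted at 15.6, 15.7, 14.9 and 14.9 RPM in Control, at 85.5, 90.2, 75.6 and 73.4 with GLP-1 and at 95.7, 84.8, 77.1 and 81.4 with BMS-21. Tiparp after 6 h stood at 11.7, 13.6, 14.2 and 13.2 RPM in Control, at 11.8, 13.6, 13.9 and 13.2 with GLP-1 and at 12.7, 12.7, 12.8 and 11.5 with BMS-21. Its fitted log2 changes at 6 h were 0.05 with GLP-1 (SE 0.09, limma adjusted p = 0.73) and -0.02 with BMS-21 (SE 0.09, adjusted p = 0.867), and the 3 groups overlapped. Asb4 held 2.81, 3.62, 3.78 and 3.23 RPM in the Control libraries at 1 h, 8.35, 8.90, 6.48 and 9.71 with GLP-1 and 10.5, 7.97, 6.87 and 8.60 with BMS-21. Asb4 at 6 h held 1.18, 2.14, 1.24 and 1.93 RPM in Control, 18.4, 19.6, 14.8 and 14.8 with GLP-1 and 18.9, 21.0, 22.4 and 19.6 with BMS-21. Asb4 had 1 h log2 ratios of 1.33 with GLP-1 and 1.35 with BMS-21, and at 6 h it rose by 3.40 (SE 0.17, limma adjusted p = 1.07e-11) and 3.69 (SE 0.16, adjusted p = 6.66e-13) in that order. These were the largest changes of any member at 6 h, and they met a Control level that was lower at 6 h than at 1 h.

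Midn, which brings nuclear proteins to the proteasome, had 1 h log2 ratios of 1.69 with GLP-1 and 1.68 with BMS-21 and rose at 6 h by 0.54 and 0.50. Tob1, an adaptor of the CCR4-NOT deadenylase, showed 1.15 with GLP-1 and 1.17 with BMS-21 and rose by 0.48 and 0.51. Magel2, a regulator of ubiquitin ligases, showed 1.71 with GLP-1 and 1.47 with BMS-21 and rose by 1.15 and 1.13 at 0.414 to 1.99 RPM. The Control libraries of Magel2 at 6 h held 11, 7, 5 and 9 reads, so it reached the mean of 10 through the agent libraries. Cwc25, a splicing factor, showed 2.10 with GLP-1 and 2.06 with BMS-21 and then 0.22 and 0.12, called with GLP-1 alone. Usp27x and Usp2 are deubiquitinases. Usp27x showed 1.86 with GLP-1 and 1.72 with BMS-21 at 1 h and 0.28 and 0.22 at 6 h, called with GLP-1 alone. Usp2 showed 1.19 with GLP-1 and 1.17 with BMS-21 at 1 h and uncalled changes of -0.06 and 0.17 at 6 h. The call of Usp27x with GLP-1 ended without any of the libraries but GLP-1 replicate 2 (log2 changes of 0.23 to 0.30, limma adjusted p 0.0525 to 0.129), and that of Cwc25 without Control replicate 1 or 2 or GLP-1 replicate 1 (0.17 to 0.20, adjusted p 0.0699 to 0.0916).

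All 4 members with metabolic or mitochondrial functions rose at 6 h with both agents (medians 0.45 and 0.47). Ldhb is a subunit of lactate dehydrogenase, an enzyme that beta cells express at low levels, and Mest is an imprinted gene for a protein with a hydrolase fold. Ldhb held 27.5, 24.9, 24.0 and 23.5 RPM in the Control libraries at 1 h, 123, 125, 98.9 and 112 with GLP-1 and 129.8, 117, 83.3 and 116 with BMS-21. Ldhb at 6 h held 21.8, 21.3, 20.9 and 22.1 RPM in Control, 30.1, 30.6, 26.2 and 29.3 with GLP-1 and 31.9, 34.1, 29.5 and 28.0 with BMS-21. Ldhb had 1 h log2 ratios of 2.23 with GLP-1 and 2.19 with BMS-21, and at 6 h it rose by 0.48 (SE 0.07, limma adjusted p = 6.78e-06) and 0.57 (SE 0.07, adjusted p = 7.54e-07) in that order. The agent libraries of Ldhb stayed above Control at 6 h, at levels below those of 1 h. Mest at 1 h was counted at 52.6, 52.1, 51.6 and 56.3 RPM in Control, at 186, 171, 141 and 178 with GLP-1 and at 169, 152, 114 and 168 with BMS-21. Mest after 6 h stood at 39.4, 41.9, 40.3 and 41.1 RPM in Control, at 142, 158, 122 and 138 with GLP-1 and at 152, 159.9, 134 and 132 with BMS-21. Mest had 1 h log2 ratios of 1.70 with GLP-1 and 1.53 with BMS-21, and at 6 h it rose by 1.83 (SE 0.06, limma adjusted p = 1.25e-14) and 1.88 (SE 0.05, adjusted p = 6.92e-17) in that order. Agent and Control libraries of Mest did not overlap, with the lowest agent library at 114 RPM and the highest Control library at 56.3 RPM over both times. Coq10b, which binds coenzyme Q in mitochondria, showed 1.79 with GLP-1 and 1.74 with BMS-21 at 1 h and rose at 6 h by 0.24 and 0.17. Slc25a25, a calcium-regulated carrier of ATP-Mg and phosphate in mitochondria, showed 1.18 with GLP-1 and 1.05 with BMS-21 and rose by 0.42 and 0.37. The call of Coq10b with BMS-21 ended without Control replicate 1 or 3 or BMS-21 replicate 1 (0.13 to 0.16, limma adjusted p 0.0565 to 0.081).

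The 7 other genes with a symbol all rose at 6 h with both agents. Enc1 is a kelch protein that binds actin. Enc1 held 598, 602, 728 and 724 RPM in the Control libraries at 1 h, 1223, 1244, 1389 and 1411 with GLP-1 and 1249, 1194, 1393 and 1412 with BMS-21. Enc1 at 6 h held 263, 252, 309 and 313 RPM in Control, 596, 588, 620.3 and 659.9 with GLP-1 and 592, 592, 676 and 693 with BMS-21. Enc1 had 1 h log2 ratios of 1.02 with GLP-1 and 1.02 with BMS-21, and at 6 h it rose by 1.17 (SE 0.08, limma adjusted p = 1.92e-06) and 1.23 (SE 0.09, adjusted p = 2.48e-05) in that order. The Control libraries of Enc1 were lower at 6 h than at 1 h, and the ratio at 6 h was the larger one. Ypel4, a small protein of the yippee-like family, showed 1.12 with GLP-1 and 1.09 with BMS-21 at 1 h and a larger rise of 1.33 and 1.61 at 6 h. C2cd4a, a nuclear protein with a C2 domain, showed 1.66 with GLP-1 and 1.58 with BMS-21 and rose by 0.61 and 0.85. It lies next to C2cd4b, which missed the threshold with GLP-1. For 52 members a place in the RefSeq order was found, and no neighbour with a 1 h ratio passed the same fold. Many neighbours had no 1 h ratio, so the fold could not be judged for them. Among these were both neighbours of Bmp2, Cebpb, Csrnp1, Ldhb, Neurod4, Plk2, Rasgef1b, Rxfp3 and Sstr1. Nap1l5, an imprinted gene like Mest and Magel2, showed 1.24 with GLP-1 and 1.19 with BMS-21 and rose by 0.46 and 0.32. Lrrc10b showed 1.33 with GLP-1 and 1.27 with BMS-21 and rose by 0.43 and 0.46, a call that with GLP-1 ended without Control replicate 1 or 4 or GLP-1 replicate 2 or 3 (0.35 to 0.42, limma adjusted p 0.0515 to 0.0943). LOC100364240, a symbol without a described function and at a mean of 808 RPM in Control at 1 h, showed 1.42 with GLP-1 and 1.44 with BMS-21 and then 0.41 and 0.42. Spata2L showed 1.67 with GLP-1 and 1.52 with BMS-21 and rose by 0.52 and 0.35.

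Of the 4 members without a symbol all rose at 6 h with both agents, 2 of which are described. ENSRNOG00000045829 at 1 h was counted at 2.97, 2.67, 3.78 and 3.32 RPM in Control, at 27.2, 24.5, 23.0 and 30.0 with GLP-1 and at 24.5, 17.9, 16.5 and 27.8 with BMS-21. ENSRNOG00000045829 after 6 h stood at 1.57, 1.62, 0.993 and 1.09 RPM in Control, at 7.31, 7.06, 5.57 and 7.42 with GLP-1 and at 6.29, 6.54, 7.75 and 7.65 with BMS-21. ENSRNOG00000045829 had 1 h log2 ratios of 3.04 with GLP-1 and 2.77 with BMS-21, and at 6 h it rose by 2.38 (SE 0.18, limma adjusted p = 1.6e-09) and 2.43 (SE 0.18, adjusted p = 4.5e-10) in that order. Its 1 h ratios were the next after those of Fam46b. ENSRNOG00000031167 held 11.6, 9.05, 9.95 and 10.9 RPM in the Control libraries at 1 h, 22.2, 19.8, 22.4 and 20.3 with GLP-1 and 19.9, 19.4, 20.4 and 23.2 with BMS-21. ENSRNOG00000031167 at 6 h held 14.8, 13.9, 15.4 and 14.2 RPM in Control, 27.5, 25.8, 23.7 and 23.9 with GLP-1 and 23.2, 22.7, 25.8 and 28.9 with BMS-21. ENSRNOG00000031167 had 1 h log2 ratios of 1.05 with GLP-1 and 1.02 with BMS-21, and at 6 h it rose by 0.84 (SE 0.07, limma adjusted p = 1.44e-08) and 0.83 (SE 0.08, adjusted p = 4.33e-08) in that order. This gene was at the lower edge of the set at 1 h.

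The agents were also set against each other. At 1 h, as a description, BMS-21 was above GLP-1 in 14 members and below it in 43, at log2 ratios from -0.45 (Nptx1) to 0.34 (Fam46b) with a median of -0.04. The libraries of the 2 agents were apart for Fam46a alone, which was lower with BMS-21; 1.20% of all genes were apart in this direction. At 6 h limma without a replicate block called 0 of 55 members different between BMS-21 and GLP-1, and 2 of 12629 genes (0.0158%). With edgeR, also without a block, 0 members and 2 genes (0.0158%) were called. With the replicate number as a block some members were called, as given below. Without adjustment 4 members had p under 0.05, where 6.33% of all genes did. Ypel4 was higher with BMS-21 by 0.28 on the log2 scale (95% interval 0.16 to 0.39, limma adjusted p = 0.106), Diras2 by 0.33 (0.15 to 0.50, adjusted p = 0.31) and Asb4 by 0.29 (0.09 to 0.49, adjusted p = 0.596), while Npy1r had a difference of -0.39 (-0.74 to -0.04, adjusted p = 0.745). The values of Ypel4 are shown because of this difference, chosen after it was seen. Ypel4 held 25.4, 27.1, 22.5 and 22.6 RPM in the Control libraries at 1 h, 54.9, 59.5, 43.8 and 49.6 with GLP-1 and 57.3, 57.8, 40.0 and 49.3 with BMS-21. Ypel4 at 6 h held 18.6, 18.8, 19.2 and 16.3 RPM in Control, 46.3, 43.9, 45.7 and 41.1 with GLP-1 and 54.6, 55.2, 54.2 and 49.8 with BMS-21. The 4 BMS-21 libraries lay above the 4 GLP-1 libraries at 6 h for Nfil3, Diras2 and Ypel4 (1.81% of all genes were apart in this direction). In 44 of the 55 members the 95% interval of the fit without a block lay within 0.5 on the log2 scale, and a difference of that size was not covered. In the other 11 it reached further.

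The replicate numbers were taken as pairing these 2 groups, since libraries of the same number deviated together (correlations across genes of 0.125 to 0.205 in 4 of 4 pairs). Unlike numbers within 1 and 2 or within 3 and 4 correlated by 0.0645 to 0.104. Pairing by number is thus not clearly told apart from the split of 1 and 2 against 3 and 4, and the block calls rest on it. With the replicate number as a block limma called 3 members higher with BMS-21, Ypel4 (adjusted p = 0.000145), Diras2 (adjusted p = 0.00484) and Asb4 (adjusted p = 0.0368), where 0.768% of all genes were higher. Within the replicate pairs, the difference of Ypel4 was 0.28 in replicates 1 and 2 (limma adjusted p = 0.0255) and 0.27 in replicates 3 and 4 (adjusted p = 0.146). Diras2 had differences of 0.19 (limma adjusted p = 0.515) and 0.46 (adjusted p = 0.0739), and Asb4 of 0.07 (adjusted p = 0.875) and 0.51 (adjusted p = 0.0398), the larger value standing in replicates 3 and 4 for both genes. DESeq2 on the recovered reads called Ypel4 (adjusted p = 0.0295), where it called 0.129% of 6983 genes higher. These are the genes to which it gave an adjusted p, so a member it did not call was not always tested.

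**Figure D4:**
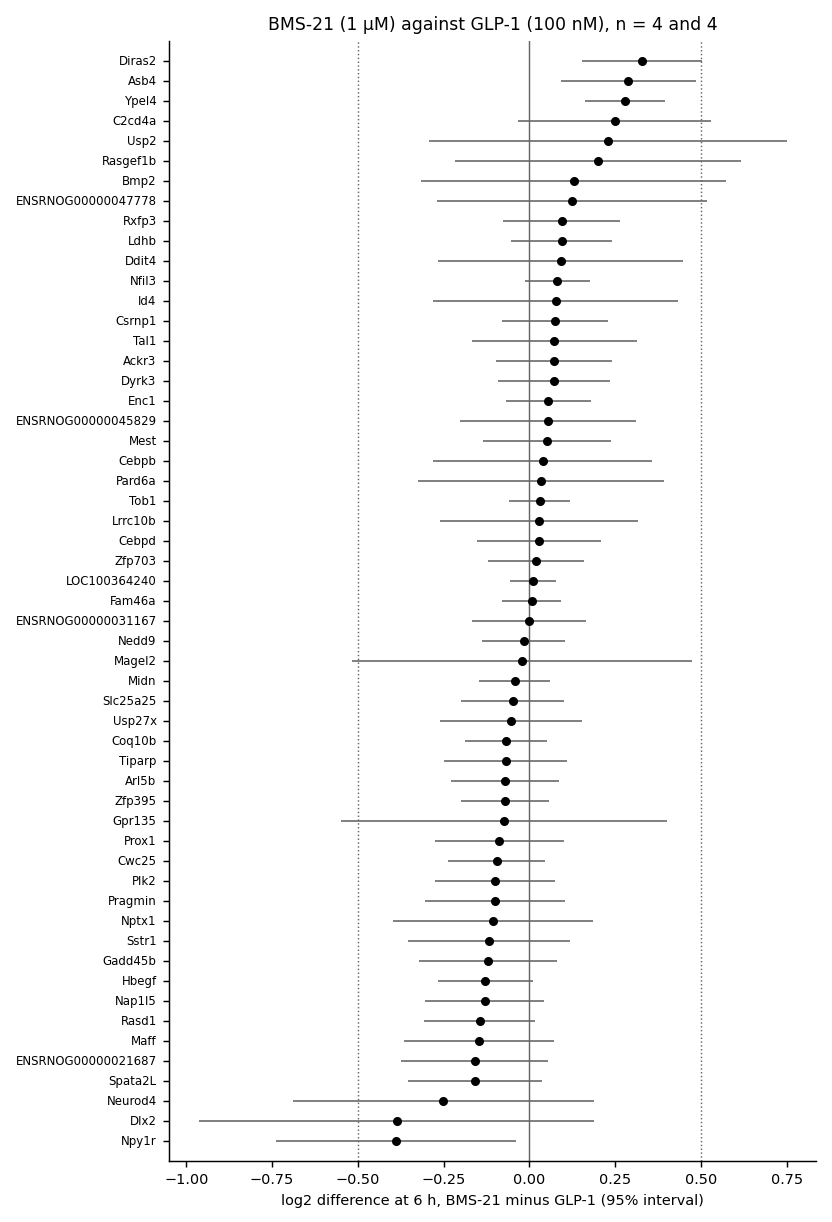
Fitted log2 difference between BMS-21 and GLP-1 at 6 h (x axis, point) with its 95% interval (line) for the 55 members tested (y axis), 4 libraries against 4. The fit held no replicate block, and dotted lines mark 0.5 in either direction. The points run from -0.39 for Npy1r to 0.33 for Diras2, with 28 above and 27 below 0.

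The Control libraries themselves differed between the times. In 41 of the 57 members mean RPM in Control was lower at 6 h than at 1 h, and in 26 the 4 libraries at 6 h lay below all 4 at 1 h, where 23.0% of all genes did. In 5 members (C2cd4a, ENSRNOG00000031167, LOC100364240, Nptx1 and Slc25a25) they lay above, where 27.5% of all genes did. The median log2 ratio of Control at 6 h over Control at 1 h was -0.40 in the members and 0.02 over all genes. The lowest log2 ratios were those of Diras2 (-1.88), Lrrtm2 (-1.44), ENSRNOG00000045829 (-1.27), Cebpb (-1.23) and Enc1 (-1.22). Control at 1 h entered the choice of the members, so these values were not tested, and time since the change from 3 mM to 11 mM glucose and time in DMSO cannot be told apart.

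The remaining lists did not hold a member, and their counts stand beside 16.2% of all genes higher and 15.6% lower with GLP-1 and 16.8% each with BMS-21. With 3 to 14 genes tested in a list, several of the counts lie near these shares. Neuropeptides, neurotrophins and peptide hormones rose in 5 of 7 genes tested with GLP-1 and in 6 of 6 with BMS-21, among them Tac1, at 1.41 with each. The PGC-1 coactivators rose in 2 of 3 with each agent, with Ppargc1b lower with BMS-21 (-0.71, limma adjusted p = 0.00199). Of the polyamine genes 3 of 7 rose and 1 fell with GLP-1, and 2 rose and 2 fell with BMS-21; Odc1, the rate-limiting enzyme, rose by 0.49 and 0.48. Among prostaglandin genes 0 of 3 rose and 1 fell with GLP-1, and 0 changed with BMS-21. Tribbles pseudokinases gave 0 of 3 with GLP-1 and 1 of 3, Trib3, with BMS-21, and SOX factors 0 of 3 with each. Beta-cell markers rose in 8 of 14 and fell in 3 with each agent, and markers of other cells in 1 of 5 with GLP-1 (Kdr, 1.29) and 2 of 5 with BMS-21 (Kdr, 1.22, and Gcg, 0.39), with Krt7 lower. Summed over the 22, markers of other cells reached 74.1 to 89.2 RPM in Control at 6 h, 71.7 to 81.6 with GLP-1 and 61.2 to 80.9 with BMS-21. Krt7 made up most of these sums, at means of 68, 57.8 and 50.4 RPM in that order. The means of Gcg, Ghrl, Sox9 and Kdr were higher with both agents, though not all of them were called. The part of these shifts in the changes of the members was not tested.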

How the data were processed

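RNA-seq of 24 rat INS-1 libraries, 4 in each of 6 groups, was analysed from 6 tables of 8 libraries each. The deposited values are signal, gene counts normalised by the authors within each table; per the submitters' processing notes TopHat2 2.0.12, Bowtie2 2.2.3.0, SAMtools 0.1.19.0, Subread, DESeq and DESeq2 1.6.3 were used with the build Rnor_5.0, and how they were combined is not given in the sources used here. The values of a library are whole multiples of 1 step, and dividing by it gave whole reads for 100.0% of them (tolerance 0.001); RPM and the count tests use these reads.

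The 6 h comparisons were fitted with limma 3.58.1 (R 4.3.3, trend and robust variance) on log2(normalised count + 1), which understates changes of low genes, over genes with a mean of at least 10 in the 8 libraries, with Benjamini-Hochberg adjustment over all genes tested and a threshold of 0.05. On simulated counts it recovered 61.2% (GLP-1), 77.6% (BMS-21) and 65.7% (between agents) of the 1.25-fold changes and 97.0%, 97.0% and 95.5% of the 2-fold ones. Of its calls there 1.8%, 5.9% and 5.1% were false in that order. The simulation gave all genes a common dispersion and held no split between replicate pairs, so recovery in the data can differ. The members and gene lists were chosen with earlier results of these data known. Values in each library are given for the 10 members with the highest 1 h ratios, the up to 5 members with the largest called changes in each 6 h comparison, the 3 members just inside the threshold and the members found in the gene lists; of list genes that are not members, up to 3 with the smallest adjusted p may be named. For the 3 genes just outside the threshold ratios alone are given. Penk, Fst and Snai1 are named because of the filter on low values.

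Replicate numbers were taken as pairing 2 groups where all 4 same-numbered pairs correlated above 0.1 in their deviations from the group means: 0.130 to 0.204 for GLP-1 and Control, 0.125 to 0.205 for the agents, but 0.0738 to 0.186 for BMS-21 and Control. Sample names number the groups in the same order within each replicate number, so the labels do not set BMS-21 and Control apart. Alternatives were other pseudocounts and filters, TMM factors, 1 fit over all libraries, the replicate block, DESeq2 1.42.0 and leaving out each library. Chosen after seeing the data were edgeR 4.0.16, scaling by library totals and the replicate pairs.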

Additional observations from a re-analysis of the deposited data

Results flagged for a closer look

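In 144 groups of 4 libraries (24 members with values for each library, in 6 groups), 7 held a library far from the other 3. Chance gives about 1 in 20 groups, so this is about as many as chance alone would give. Fam46b stood at 0.576 RPM in Control replicate 3 at 1 h, with the other Control libraries at 0 to 0.0874 RPM. Pragmin was high in GLP-1 replicate 4 at 1 h, at 48.0 RPM beside 39.4 to 40.7, and in Control replicate 3 at 6 h, at 10.5 beside 9.15 to 9.27. Plk2 was low in GLP-1 replicate 4 at 1 h, at 87.7 RPM beside 100.0 to 101.0. Low values also stood apart for Diras2 in GLP-1 replicate 4 at 6 h (15.7 RPM beside 19.3 to 19.6), for Tiparp in BMS-21 replicate 4 at 6 h (11.5 beside 12.7 to 12.8) and for Bmp2 in Control replicate 2 at 6 h (5.04 beside 5.89 to 6.04).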

How the results depend on the processing

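The count of members called higher at 6 h stayed within 1.5 times under each alternative, at 45 to 48 with GLP-1 and 43 to 44 with BMS-21 when 1 library was left out, and 0 members were called lower. Among all genes tested, 1819 to 1915 were then called higher with GLP-1 and 1825 to 2050 with BMS-21. Scaling by library totals, which shifts the median of all genes by -0.054 with GLP-1 and -0.059 with BMS-21, gave 1451 genes higher and 2960 lower with GLP-1 against 2044 and 1967, and 1510 higher and 3068 lower with BMS-21 against 2125 and 2128; 46 members were then higher with GLP-1. It ended the GLP-1 calls of Arl5b, Cwc25, Dlx2 and Usp27x and the BMS-21 calls of Coq10b and Pard6a, and DESeq2 ended the GLP-1 calls of Arl5b, Cwc25, Dlx2, Lrrc10b and Usp27x and the BMS-21 calls of Lrrc10b and Pard6a. Without a filter on low values Dlx2 and Usp27x (GLP-1) and Pard6a (BMS-21) were not called, and with 1 fit over all libraries Cwc25 (GLP-1) and Coq10b (BMS-21).

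Members that were not called changed sign. With GLP-1, leaving out 1 library gave Ddit4 -0.1711 to 0.014, Usp2 -0.2274 to 0.083 and Tiparp -0.0081 to 0.0977; Tiparp was at -0.0058 with library totals, and Ddit4 at 0.1209 and Usp2 at 0.0737 with replicates 3 and 4 alone. With BMS-21, leaving out 1 library gave Ddit4 -0.0937 to 0.1708, Tiparp -0.0793 to 0.0152 and Bmp2 -0.2354 to 0.0269. Ddit4 was at -0.0337 with library totals and -0.2774 with replicates 1 and 2 alone, Tiparp at 0.0596 with the latter, and Cwc25 at -0.0281 and Arl5b at -0.0011 with replicates 3 and 4 alone. The cause was not tested.

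Between the agents 2 genes were called, 1 in each direction. Leaving out any library gave 0. With a mean of at least 50 there was 1 (0 lower), with DESeq2 19 (9 higher, 10 lower, 1 member), with all 24 libraries in 1 fit 14 (2 higher, 12 lower), with replicates 1 and 2 alone 37 (14 higher, 23 lower, 1 member) and with replicates 3 and 4 alone 39 (19 higher, 20 lower, 1 member). With the replicate block there were 217 (97 higher, 120 lower, 3 members), and block calls between GLP-1 and Control were 5331. BMS-21 and Control libraries were not shown to be paired; the block there called 45 members, adding Rasd1. It ended no call of a member. At 2 to 6 reads per library, Fam46b at 6 h is beyond what this depth resolves.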
